A study of Mus musculus with 2 samples.

Results

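Retnla, Chil3, Ear2, Ccl24 and Fn1 are 5 genes that macrophages raise, alone or together, in the state known as alternative activation. They were taken by symbol from the 28692 genes of the matrices, and their raw counts were added up per cluster and library (UMIs, barcode tags that let each captured RNA molecule be counted once). The cells were CD45+ leukocytes resident in adipose tissue of wild-type C57BL/6 mice, separated from blood leukocytes by intravenous labelling. The series has 1 library of mice fed chow, labelled control, and 1 of mice fed a ketogenic diet (KD), which is so low in carbohydrate that the liver makes ketone bodies, and feeding lasted 1 week in both. The sample titles call the mice adult, and their exact age, sex and number per library are not given in the sources used here. The study compared resident immune cells of fat between these diets, and its title names γδ T cells. The question here was where the 5 genes were transcribed and how their levels differed between the libraries.

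Alternative activation is the response of macrophages to interleukin 4 and interleukin 13, which bind receptors with the Il4ra chain and act through the transcription factor STAT6. In lean fat these cytokines come largely from group 2 innate lymphoid cells (ILC2) and eosinophils. Retnla (resistin-like alpha) and Chil3 (a chitinase-like lectin also called Ym1) are secreted proteins, Ear2 is a ribonuclease of the eosinophil-associated family, Ccl24 (eotaxin-2) attracts eosinophils through the receptor Ccr3, and Fn1 (fibronectin) is a matrix protein.

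The genes lie on separate chromosomes. In the GENCODE M21 annotation of GRCm38, Retnla (ENSMUSG00000061100) is at chr16:48842551-48844461 on the plus strand and Chil3 (ENSMUSG00000040809) at chr3:106147554-106167564 on the minus strand. Ear2 (ENSMUSG00000072596) is at chr14:44102654-44103534 on the plus strand. Ccl24 (ENSMUSG00000004814) lies at chr5:135569937-135573049 and Fn1 (ENSMUSG00000026193) at chr1:71585520-71653200, both on the minus strand. All 5 are protein-coding. Of the 31-base words in the last 500 transcript bases, where 3′ counting places most reads, Ear2 shares 57.7% with other genes, chiefly Ear1 and Ear10. Chil3 shares 22.3%, chiefly with Chil4, and Retnla shares 2.55% with Retnlg, so counts of Ear2 and Chil3 could in part belong to a close relative. An antisense gene, Apol7d, overlaps Fn1 and had 9 UMIs on chow and 1 on the ketogenic diet. A long noncoding RNA gene, Gm49101, overlaps Ear2 on the opposite strand, and its counts were not analysed here.

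The 250 bases before the RefSeq start (GRCm38.p6) are shown for the 3 genes with an entry, because STAT6 is the factor through which interleukin 4 acts. They are Retnla at chr16:48842359-48842608, Chil3 at chr3:106167565-106167814 and Ear2 at chr14:44102404-44102653, each written on the gene's own strand. Capitals mark matches, sought on both strands, to 3 words: a STAT6-type word (TTC, any 4 bases, GAA), a STAT-type word with a shorter spacer (TTC, any 3 bases, GAA), and the TATA box word TATAAA.
Retnla: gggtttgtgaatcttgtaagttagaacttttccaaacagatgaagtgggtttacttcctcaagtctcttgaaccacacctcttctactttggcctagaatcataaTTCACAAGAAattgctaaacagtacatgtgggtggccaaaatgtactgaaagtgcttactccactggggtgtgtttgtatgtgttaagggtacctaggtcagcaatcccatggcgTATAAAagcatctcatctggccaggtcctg
Chil3: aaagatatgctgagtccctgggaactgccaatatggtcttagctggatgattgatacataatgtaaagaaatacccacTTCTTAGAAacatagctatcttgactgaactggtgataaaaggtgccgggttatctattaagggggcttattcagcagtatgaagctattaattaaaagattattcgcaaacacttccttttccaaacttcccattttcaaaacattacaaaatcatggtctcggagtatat
Ear2: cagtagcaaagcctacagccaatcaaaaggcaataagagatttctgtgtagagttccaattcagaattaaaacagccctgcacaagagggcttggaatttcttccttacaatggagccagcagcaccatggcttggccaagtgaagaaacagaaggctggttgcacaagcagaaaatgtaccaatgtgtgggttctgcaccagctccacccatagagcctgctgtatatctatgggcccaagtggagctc
The Retnla window held 1 STAT6-type word at bases -145 to -136 from the RefSeq start and 1 TATAAA at -30 to -25. GENCODE starts Retnla 58 bases further upstream than RefSeq. The Chil3 window held 1 of the STAT-type words with the shorter spacer at -172 to -164. Among 32851 windows of this length, 5.85% held the STAT6-type word, 7.02% the one with the shorter spacer and 12.4% TATAAA. None of the matches overlapped another, and a match is a description of letters, not of binding. The Ear2 window held none of these words, which says only that these letters are not in this window.

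The authors' 13 deposited clusters covered 4458 of 4545 cells of the chow library and 5559 of 5614 of the ketogenic one, and 3967 and 1466 of the clustered cells had at least 1 UMI of 1 of the 5 genes. Median depths were 3469 and 3462 UMIs per cell, and 41 cell barcodes occurred in both libraries. Levels are given as CPM, the UMIs of a gene per 1000000 UMIs of the same cells. No difference between diets could be tested, because each diet had a single library. Square brackets are 95% intervals that cover counting error only, not differences between mice or library preparations. Clusters were named from marker genes. Cluster 0 was ILC2-like (9 of 10 ILC2 markers raised) and held 854 chow and 1310 ketogenic cells. Cluster 3 was macrophage-like with 5 of 8 monocyte markers raised as well and held 859 and 145 cells. Cluster 8 stayed unnamed, with 2 of 12 macrophage, 2 of 8 monocyte and 4 of 8 type 2 conventional dendritic cell markers raised. It held 362 and 47 cells, and its leading genes include Retnla, Ear2, Fn1, Fcrls and Lpl. Chil3 and Ccl24 are among the 10 leading genes of cluster 3. The members therefore helped to define these clusters, so high levels in them are descriptions, and cluster sizes are not read as results.

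The genes fell into 3 patterns by place. Retnla and Ear2 were highest in cluster 8, and Chil3 and, on chow, Ccl24 in cluster 3, while Fn1 was shared by clusters 3 and 8. The plot of levels by cluster shows this order for all 13 clusters.

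**Figure D1:**
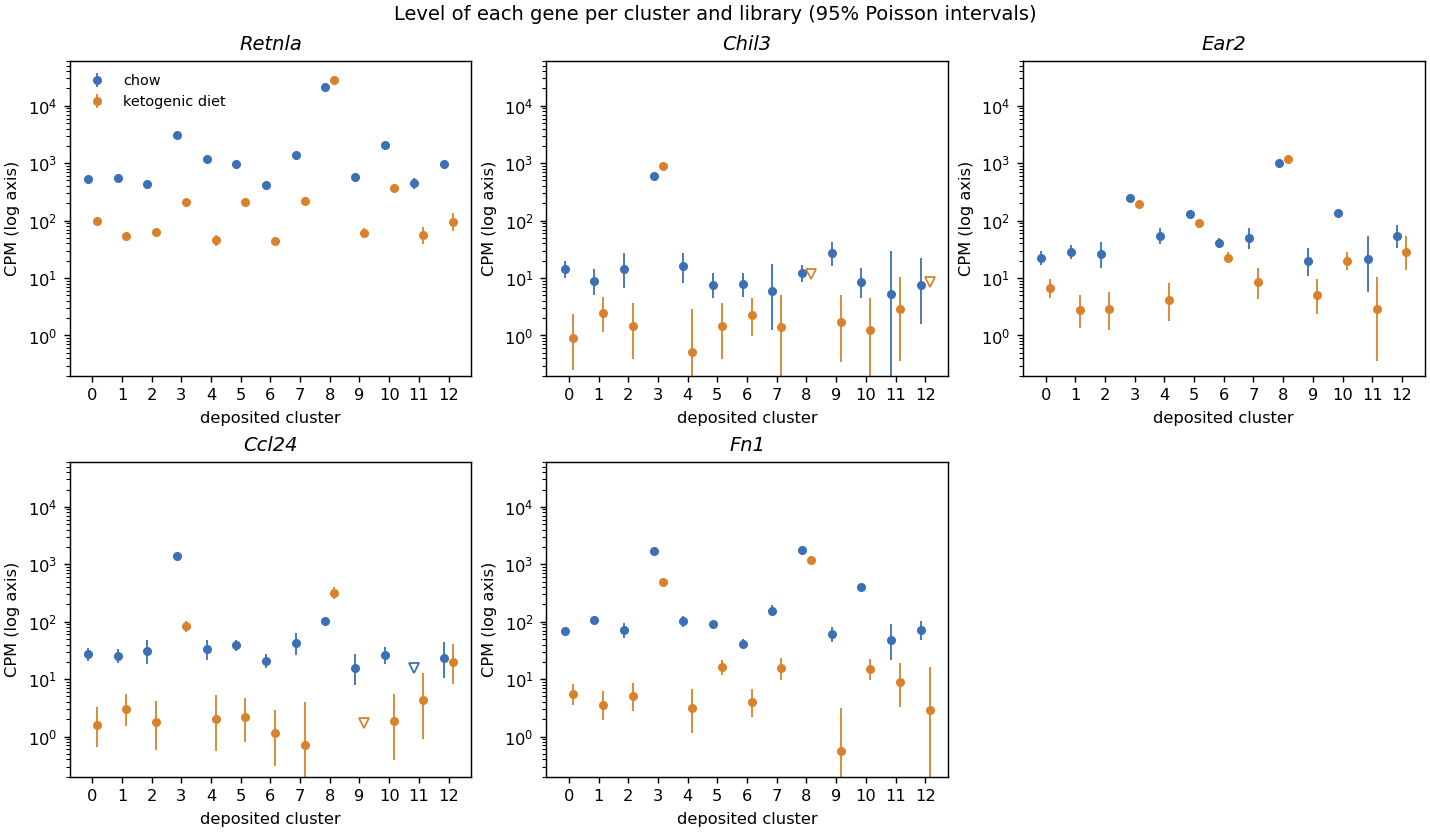
Level of each gene (CPM, log axis) in the 13 deposited clusters, chow in blue and ketogenic diet in orange, with 95% Poisson intervals; open triangles mark a count of 0, drawn at the limit of 3 counts. Retnla and Ear2 peak in cluster 8 and Chil3 in cluster 3, and Retnla is present in every cluster of both libraries.

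Retnla had 88037 UMIs on chow and 9983 on the ketogenic diet. Cluster 8 held 69.7% of them on chow and 71.2% on the ketogenic diet, at 21079 and 28199 CPM. Cluster 3 came next on chow, with 17.8% of the UMIs and 3083 CPM, but came after 4 other clusters on the ketogenic diet, with 1.85% and 207 CPM [178–239]. There it overlapped clusters 7 (221 CPM) and 5 (212 CPM), which are regulatory T-like and like conventional dendritic cells. This order rests on single cells: 1 cell held 79.2% of the ketogenic Retnla UMIs of cluster 7 and 1 cell 74.7% of those of cluster 10. Without the cell with most Retnla UMIs in each cluster, cluster 3 stood at 115 CPM on the ketogenic diet, below clusters 8 and 5 (162 CPM) and above clusters 10 (93.5 CPM) and 7 (46.7 CPM). Retnla was also found where it should be lacking. In the natural killer-like cluster 1 it stood at 562 CPM on chow and 54.0 on the ketogenic diet, 10.4-fold lower [8.93–12.2]. The chow value is 13.6% of the level over all cells. In all clusters but cluster 8 Retnla was lower on the ketogenic diet, from 4.55-fold in cluster 5 to 26.3-fold in cluster 4, where 1 cell held 41.2% of the chow Retnla UMIs. Without the cell with most Retnla UMIs in each cluster and library, cluster 4 was 16.3-fold lower, and the range ran from 5.61-fold in cluster 5 to 25.5-fold in cluster 3. Free RNA in droplets gives a low level in every cell type, and its part in these values was not tested. After each cell was thinned to 1000 UMIs, 44.8% [41.5–48.2] of chow cells of cluster 3 and 39.9% [36.3–43.6] of cluster 1 had a Retnla UMI, at median depths of 5543 and 2296.5 UMIs. On the ketogenic diet the shares were 8.28% and 5.18%. Without thinning they were 91.0% and 69.6% on chow and 29.7% and 15.4% on the ketogenic diet. The thinned intervals of the 2 clusters overlap on chow, while the summed level of Retnla in cluster 3 was 5.48-fold and 3.84-fold that of cluster 1. In cluster 8 the thinned shares were 88.7% and 89.4%.

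Ear2 had the same main cluster as Retnla. It stood at 1002 CPM in cluster 8 on chow and 1195 on the ketogenic diet, and at 252 and 195 CPM in cluster 3. The ribonuclease was also seen in cluster 5, at 129 and 92.3 CPM, and its level in cluster 1 was 28.4 and 2.78 CPM. Cluster 8 held 58.5% of its UMIs on chow and 32.4% on the ketogenic diet. After thinning, 55.8% and 63.8% of the cells of cluster 8 had an Ear2 UMI. Eosinophil markers were at or near 0 beside it. In cluster 3 Epx, Il5ra, Alox15 and Ear6 were at 0 in both libraries, and the 7 eosinophil markers together reached 3.15 and 4.48 CPM, and in cluster 8 they reached 2.75 and 0 CPM.

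Chil3 was the gene most limited to 1 cluster. Cluster 3 held 94.5% of its UMIs on chow and 95.4% on the ketogenic diet, at 608 and 905 CPM. No other cluster passed 26.9 CPM on chow or 2.93 on the ketogenic diet. Thinned, 25.3% and 30.3% of the cells of cluster 3 had a Chil3 UMI.

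Ccl24 lay mostly in 1 cluster on chow. There 91.3% of its 7627 UMIs were in cluster 3, at 1371 CPM, and 3.88% in cluster 8, at 101.7 CPM. On the ketogenic diet it had 205 UMIs, of which cluster 3 held 36.1%, at 82.9 CPM, and cluster 8 held 39.0%, at 318 CPM. Both ketogenic values rest on few cells: 80 UMIs in 14 cells of cluster 8, with 41.2% of them from 1 cell, and 74 UMIs in 9 cells of cluster 3, with 35.1% from 1 cell. These counts do not rank the clusters as sources of ketogenic Ccl24. Fn1 stood at 1748 CPM in cluster 8 and 1701 CPM in cluster 3 on chow, and at 1183 and 496 CPM on the ketogenic diet. The matrix protein was thus at similar levels in both clusters on chow, and higher in cluster 8 than in cluster 3 on the ketogenic diet.

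**Figure D2:**
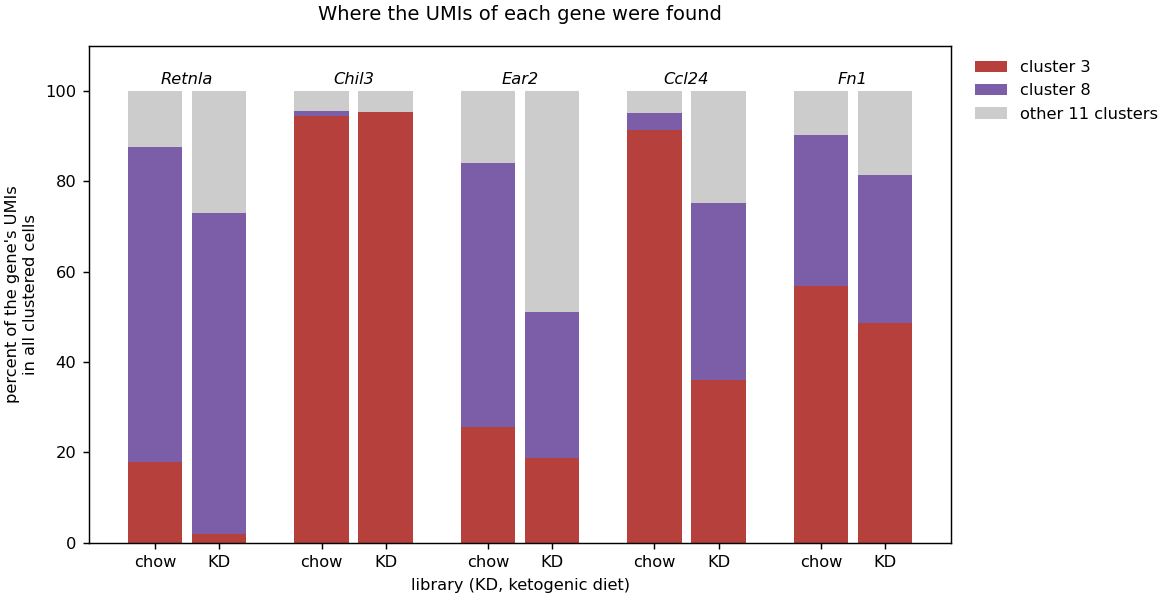
Percent of each gene's UMIs over all clustered cells that came from clusters 3 and 8 and the other 11 clusters, for chow and ketogenic diet (KD). Chil3 comes almost wholly from cluster 3 in both libraries (94.5% and 95.4%), and Ccl24 has 91.3% of its UMIs in cluster 3 on chow and 36.1% on the ketogenic diet.

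Within cluster 3, 3 of the 5 genes were at least 2-fold lower on the ketogenic diet. Among the 4983 genes with at least 100 UMIs in the cluster, 2.75% were that much lower and 2.45% that much higher. Ccl24 was 16.6-fold lower [13.2–21.1], Retnla 14.9-fold lower [12.9–17.3] and Fn1 3.43-fold lower [3.12–3.78]. Ear2 was 1.29-fold lower [1.10–1.52], and Chil3 was 1.49-fold higher [1.37–1.61]. In the ketogenic library 44.9% of the Retnla UMIs of the cluster came from 1 cell, and 35.1% of its Ccl24 UMIs. The value for Retnla also depends on how cells were assigned. In an alternative chosen after seeing the data, cells were clustered again. Without the members among those used for clustering, Retnla was 2.48-fold lower [2.35–2.63] in the cluster matched to cluster 3, where 2 ketogenic cells from deposited cluster 8 held 92.4% of its ketogenic Retnla UMIs. Without the cells from cluster 8 the levels were 3070 and 109.9 CPM. The other genes kept their direction and their side of 2-fold in that clustering: Ccl24 was 15.6-fold lower, Fn1 3.75-fold and Ear2 1.52-fold, and Chil3 was 1.54-fold higher. Leaving out the cell with most of a gene's UMIs in each library gave a log2 ratio of -4.66 for Retnla in place of -3.89, and averaging CPM over cells gave -3.19 for Retnla and -3.30 for Ccl24.

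Markers of other cells also differed in cluster 3. Summed neutrophil markers went from 306 to 59.3 CPM, with 4 of 5 measured markers at least 2-fold lower and Ngp and Camp at 0 in both libraries. Of these 4, S100a8 (793 and 9 UMIs) was 15.5-fold lower [8.12–34.0] and S100a9 had 512 and 1 UMIs, a ratio of 0.0111 [0.000281–0.0622]. Retnlg (30 and 0 UMIs) is bounded at 1.76-fold lower, and the interval of Mmp9 (22 and 1 UMIs) includes 1. Summed macrophage markers were 2612 and 2349 CPM, with 4 of 11 measured ones at least 2-fold lower and 1, Fcgr1, 2.14-fold higher [1.84–2.49]. Of the 4, the mannose receptor gene Mrc1 (894 and 40 UMIs) was 3.93-fold lower [2.86–5.54], while Cd163 and Mertk rest on 1 ketogenic UMI each, with intervals that include 1. Folr2 and Lyve1 were at 0 on the ketogenic diet. Summed monocyte markers were 23881 and 27630 CPM, with 2 of 8 higher, and natural killer markers 81.1 and 218 CPM, with 5 of 6 higher. The part of these shifts in the differences of the 5 genes was not tested.

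Cells of cluster 3 were split at 1 UMI of C1qa, C1qb and C1qc together per 1000 UMIs, which are complement genes typical of tissue macrophages. On chow 30.4% [27.3–33.6] of its cells were C1q-high, and on the ketogenic diet 14.5% [9.19–21.3], and 97 and 12 cells lay near the cut. Retnla was higher in C1q-high cells and went from 6067 to 408 CPM there and from 1684 to 170 CPM in C1q-low cells. Most of the ketogenic C1q-low Retnla UMIs came from 1 cell, which held 44.9% of all ketogenic Retnla UMIs of cluster 3. The C1q-low level without this cell was not computed. Ccl24 went from 726 to 7.15 CPM in C1q-high cells, where the ketogenic value is 1 UMI, and from 1674 to 96.9 in C1q-low cells. The chow C1q-high level of Ccl24 was 1120 CPM with a cut at 0.5 per 1000 and 483 CPM with a cut at 2. Fn1 went from 1816 to 379 and from 1647 to 518 CPM. These 3 genes were lower on both sides of the split. Ear2 went from 308 to 172 CPM in C1q-high and from 226 to 199 in C1q-low cells. Chil3 was higher in C1q-low cells and went from 270 to 308 CPM in C1q-high and from 767 to 1016 in C1q-low cells, and the C1q-high ratio turned below 1 with a lower cut.

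The level of Ccl24 in cluster 3 was carried by few cells. The 64 chow cells with at least 1 Ccl24 UMI per 1000 (7.45% [5.78–9.41] of the cluster) held 96.4% of its Ccl24 and 36.3% of its Chil3 UMIs. Retnla stood at 5118 CPM in them against 2888 in the other chow cells, Fn1 at 1959 against 1676 and Ear2 at 153 against 261. Among the genes highest in them relative to the other chow cells were AA467197, the chemokine Ccl7, the protease inhibitor Timp1, Car4, the transglutaminase Tgm2, Gatm, the growth factor Hbegf, the proteoglycan Sdc4 and Chil3. On the ketogenic diet 5 cells (3.45% [1.13–7.86]) passed the same cut, at 2737 CPM of Ccl24 against 15145 CPM in the chow cells, with 34 chow and 3 ketogenic cells near the cut. With 1 library per diet and 5 such ketogenic cells, the difference between these shares was not tested.

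**Figure D3:**
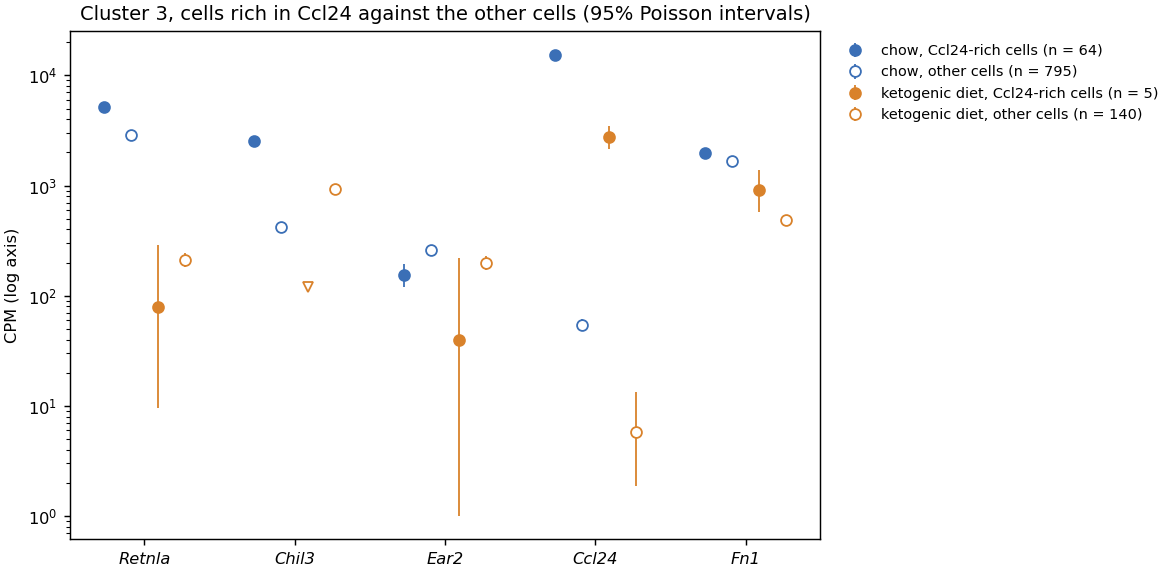
Level of the 5 genes (CPM, log axis) in cells of cluster 3 with at least 1 Ccl24 UMI per 1000 (filled) and in its other cells (open), chow in blue and ketogenic diet in orange, with 95% Poisson intervals; the open triangle marks 0 UMIs, drawn at the limit of 3 counts. Chil3, Retnla and Fn1 stand higher in the Ccl24-rich chow cells than in the other chow cells, and Ear2 stands lower.

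Retnla in cluster 3 was carried by more cells. The 161 chow cells of cluster 3 with at least 1 Retnla UMI per 1000 (18.7% of them) held 89.3% of its Retnla UMIs, and 5 ketogenic cells (3.45%) passed that cut. With 306 chow and 8 ketogenic cells near it, these shares depend on where the cut lies. In the natural killer-like cluster 1, 114 chow cells (15.7%) and 3 ketogenic cells (0.282%) also passed it. On chow the cut therefore does not set cluster 3 apart from cells that should lack Retnla. At 10 UMIs per 1000, 53 chow cells (6.17%) and 1 ketogenic cell of cluster 3 passed, and 0 cells of cluster 1. A cut at 1 Chil3 UMI per 1000 had 157 chow and 26 ketogenic cells near it. Of the 134 chow cells rich in Chil3, 27 were also rich in Ccl24, and the 134 together had 6216 CPM of Ccl24. Of the 38 ketogenic cells rich in Chil3, 0 were among the 5 rich in Ccl24, and together they had 1 Ccl24 UMI (4.09 CPM). With so few Ccl24-rich ketogenic cells, the diets cannot be compared in this. Over all chow cells of the cluster, 31.1% of those with a Chil3 UMI and 23.3% of those without had a Ccl24 UMI. Over the ketogenic cells these were 2 of 67 (2.99%) and 7 of 78 (8.97%).

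In cluster 8 the genes differed between the diets in another way than in cluster 3. Retnla was 1.34-fold higher on the ketogenic diet [1.31–1.37], Ear2 1.19-fold higher [1.06–1.34] and Ccl24 3.12-fold higher [2.41–4.01], while Fn1 was 1.48-fold lower [1.31–1.67]. Chil3 had 36 and 0 UMIs, and the interval of its ratio, 0 to 1.25, includes 1. Of the 3134 genes with at least 100 UMIs in the cluster, 4.85% were at least 2-fold lower and 0.734% at least 2-fold higher. Of the 5 genes, Ccl24 alone was at least 2-fold higher. Summed macrophage markers were 932 and 1036 CPM there, monocyte markers 13431 and 15632 CPM and type 2 conventional dendritic cell markers 1202 and 976 CPM. ILC2 markers were 340 and 187 CPM, while CD4 T cell markers were 118 and 278 CPM, with 5 of 6 measured ones at least 2-fold higher. Their part in these ratios was not tested. Median depth was 7938 UMIs per chow cell of the cluster and 4581 per ketogenic cell, and averaging CPM over cells gave a log2 ratio of 2.34 for Ccl24 in place of 1.65. It was 2.26 with 10% of UMIs subtracted as free RNA and 1.27 without the cell with most Ccl24 UMIs in each library. With 387 of the 409 cells of cluster 8 joining cells of cluster 5 in the clustering without the members, no value for this cluster could be had there.

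**Figure D4:**
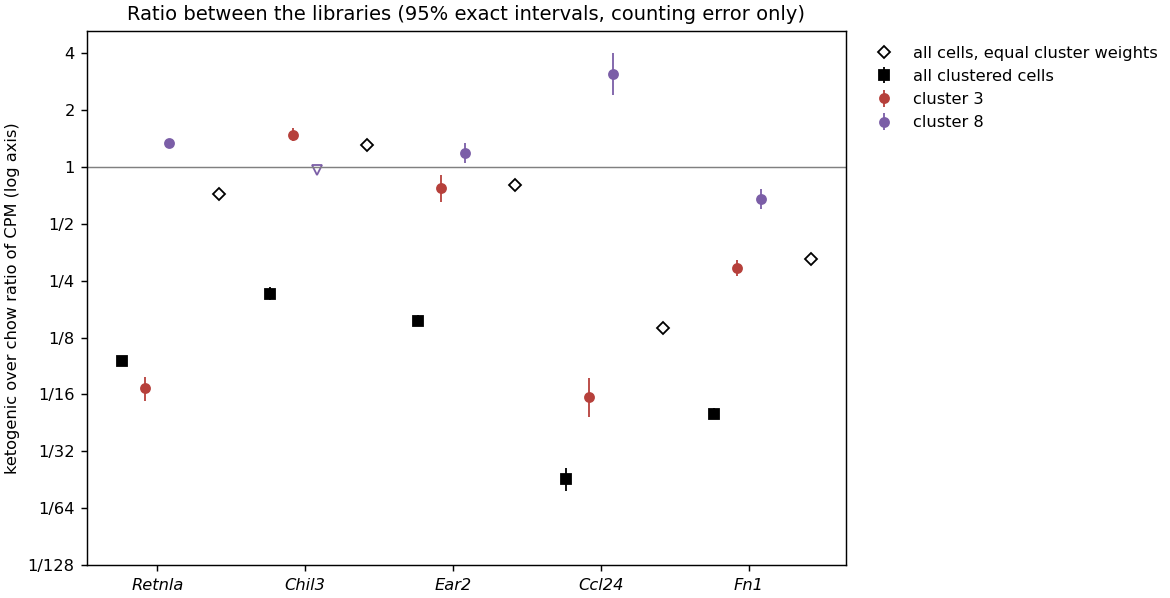
Ratio of CPM, ketogenic diet over chow (log axis), for each gene over all clustered cells, and in clusters 3 and 8, with 95% intervals for counting error, and over all cells with each cluster given the same weight in both libraries; the open triangle marks a count of 0, drawn at the limit of 3 counts. Ccl24, Retnla and Fn1 lie below 1/2 in cluster 3, and Retnla, Ear2 and Ccl24 lie above 1 in cluster 8.

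Over all clustered cells, all 5 genes were at least 2-fold lower on the ketogenic diet, where 5.16% of 10361 genes were that much lower and 4.93% that much higher. Ccl24 was 45.1-fold lower, Fn1 20.2-fold, Retnla 10.7-fold, Ear2 6.51-fold and Chil3 4.68-fold. These values mix levels within clusters with cell numbers, and clusters 3 and 8 had fewer cells in the ketogenic library. With each cluster given its mean share of cells in both libraries, Ccl24 was 7.08-fold lower, Fn1 3.06-fold, Retnla 1.38-fold and Ear2 1.25-fold, and Chil3 turned to 1.30-fold higher. Averaging CPM over cells gave log2 ratios of -4.75 for Ccl24 and -2.82 for Retnla in place of -5.49 and -3.42. Subtracting the cluster 1 level gave -6.09 for Ccl24.

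The pathway around the 5 genes was described from gene lists, over genes with at least 20 UMIs in cluster 3. Of 8884 such genes, 5.40% were at least 2-fold lower, 5.43% at least 2-fold higher, and the median log2 ratio was 0.06. Of the ligands of type 2 responses, 4 of 5 measured were at least 2-fold lower, with at most 4 ketogenic UMIs each. Csf1 had 32 and 1 UMIs, Il5 27 and 1 and Il10 56 and 4, and the intervals of these 3 ratios include 1. The remaining ligand, Tgfb1, was 1.73-fold higher (284 and 491 CPM). Of 17 measured receptors and transcription factors, 1 was at least 2-fold lower and none higher, with a median of 0.14. It was Egr2, at 68.7 and 29.1 CPM, and Irf4, a factor induced by interleukin 4, came next at 26.8 and 13.4 CPM. Il13ra1 and Jak3 were the highest of that list, at log2 ratios of 0.66 and 0.83. The receptor chain Il4ra stood at 32.3 CPM [27.5–37.6] and 23.5 [14.6–35.9], and Stat6 at 49.2 [43.3–55.7] and 47.0 [33.9–63.6], and for both the intervals overlap.

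Other targets of alternative activation were lower more often than higher. Of 21 measured, 9 were at least 2-fold lower, 1 at least 2-fold higher and 11 within 2-fold, with a median of -0.38. The chemokine Ccl17 went from 141 UMIs to 1, a ratio of 0.0403 [0.00101–0.228], and the folate receptor Folr2 from 35 UMIs to 0, at least 2.05-fold lower, below the median also at that bound. Msr1, a scavenger receptor, was 2.76-fold higher [2.32–3.28], and Socs1 had a log2 ratio of 0.52. Of 12 measured genes of classical activation, 2 were lower, 4 higher and 6 within 2-fold, with a median of 0.58. Il6 was 4.06-fold lower [2.87–5.94] and Tnf 2.38-fold lower [1.70–3.42], while Il1a was 2.52-fold higher [1.75–3.59]. Cxcl9, induced by interferon gamma, had 11 and 29 UMIs, 40.0% of them from 1 cell.

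Interleukin 13, a ligand of the pathway, came mainly from the ILC2-like cluster 0, which held 83.8% of Il13 UMIs on chow and 87.2% on the ketogenic diet. Over the genes with at least 20 UMIs in cluster 0, 3.09% were at least 2-fold lower and 2.85% at least 2-fold higher. Of the type 2 ligands in cluster 0, all 6 measured stayed within 2-fold: Il5 and Il4 had log2 ratios of -0.49 and -0.45, Csf2 and Tgfb1 0.42 and 0.73. Markers of other cells differed there as well. Summed mast cell and basophil markers went from 11.4 to 90.8 CPM, with 4 of 5 measured ones at least 2-fold higher, and neutrophil markers from 118 to 9.18 CPM, with both measured ones lower. Summed macrophage markers went from 82.0 to 20.4 CPM. Their part in the values of the ligands was not tested.

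Of 7 measured family relatives of the members in cluster 3, 2 were at least 2-fold lower: Rnase2a had 47 and 0 UMIs, at least 2.75-fold lower against the limit of 3 counts, and Retnlg 30 and 0, at least 1.76-fold lower. Retnlg passes 2-fold only with 0.5 added to each count. Rnase4 and Rnase6 had log2 ratios of 0.42 and 0.98. All 7 measured receptors of the members stayed within 2-fold, from Itgb3 (-0.84) and Itga4 (-0.18) to Itgb7 (0.52) and Cap1 (0.73), a receptor proposed for resistin. Ccr3, the receptor of Ccl24, lay mainly in the regulatory T-like cluster 7, with 61.6% and 50.4% of its UMIs.

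In cluster 8, 10.4% of 7418 genes with at least 20 UMIs were at least 2-fold lower and 4.65% at least 2-fold higher. There, of 15 other targets of alternative activation measured, 2 were lower and 1 higher.

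The genes most like each member were sought over the 26 sums of cluster and library, by the correlation of log2(CPM + 10) among 10361 genes. The sums share 2 libraries and free RNA, so these values are descriptions. Retnla was most like Fcrls (r = 0.92), Fn1 (0.89) and Ear2 (0.87). Ear2 was most like Myof (0.96), Pltp (0.95) and Pilrb2 (0.94), and Fn1 like Lpl (0.93), C1qb (0.92) and Pilra (0.91). Ccl24 was most like Pf4 (0.91), Pla2g7 (0.89) and Mmp19 (0.88), and Chil3 like Hp (0.99), Csf3r (0.96) and Gm5150 (0.96).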

How the data were processed

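The authors deposited raw UMI counts per gene and cell for 2 libraries prepared by a 10x Genomics protocol, not normalised per the file headers and whole-number values, and a table with t-SNE coordinates, not used here, and a cluster number per cell (resolution 0.5). The submitters' processing notes name Cell Ranger, Seurat and mm10. Versions, the annotation and doublet removal are not given in the sources used here, and no doublet caller was run. UMIs were summed per cluster and library and given as CPM with exact Poisson intervals. Ratios have exact conditional intervals, with 0.5 added to each count for log2 values, and shares of cells have exact binomial intervals after thinning to 1000 UMIs by hypergeometric expectation. For 3 of the 5 genes RefSeq gave a promoter (GRCm38.p6); GENCODE M21 gave positions only. A count of 0 allows 3 counts. No test between diets is possible. The members and gene lists were chosen with earlier results of these data known. Named genes are the members, the 3 genes most like each, and from each list the 2 highest and 2 lowest ratios in cluster 3, and in cluster 0 for type 2 ligands. Of 6 members by the rule, 1 is not reported here, nor are lists chosen for it. Il13, Il4ra, Stat6, Ccr3, Apol7d, single cell markers and the genes of Ccl24-rich cells were added after their values were seen, as were the cuts for rich cells. A marker was raised when CPM plus 20 was at least 2-fold above all other clustered cells. Cells were also clustered again without the members with scanpy 1.11.5 (Leiden, 2000 variable genes found in at least 20 cells, 30 components, 15 neighbours, resolution 0.5). Alternatives changed the added count, centring, averaging, depth minimum, free RNA correction, cluster weights, thinning and C1q cut. Intervals and thinning were tested on simulated data. Python 3.11.15, numpy 2.4.6, scipy 1.17.1 and pandas 2.3.3 were used.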

Additional observations from a re-analysis of the deposited data

Results flagged for a closer look

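The ratios of 3 genes lay on opposite sides of 1 in clusters 3 and 8, beyond counting error in each. The log2 ratio, ketogenic over chow, was higher in cluster 8 than in cluster 3 by 4.31 for Retnla, by 0.62 for Ear2 and by 5.69 for Ccl24. Each diet had 1 library, so these differences were not tested. The Ccl24 value rests on 80 ketogenic UMIs in cluster 8, 41.2% of them from 1 cell. For Retnla, 1 cell held 44.9% of the ketogenic UMIs in cluster 3, and without the cell with most Retnla UMIs in each library the log2 ratio there was -4.66. It was -3.19 with CPM averaged over cells and -1.31 with cells clustered again without the members. In that clustering 2 ketogenic cells from deposited cluster 8 held 92.4% of the ketogenic Retnla UMIs. Without cells from cluster 8 the levels were 3070 CPM on chow and 109.9 on the ketogenic diet. For Ear2 the log2 ratio in cluster 3 was -0.12 with CPM averaged over cells, in place of -0.37, and in C1q-low cells of that cluster the interval of its ratio included 1. In cluster 8 it was 0.16 without the cell with most Ear2 UMIs in each library, in place of 0.26. Retnla and Ear2 are among the leading genes of cluster 8, and Ccl24 among those of cluster 3, so they helped to define the clusters compared.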

How the results depend on the processing

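No paired analysis was possible because each diet had 1 library. Of 164 alternatives, 117 stayed within counting error, 46 moved and 1 reversed, counting as reversed only ratios whose interval excluded 1 before; the cause was not tested where none is named. Giving each cluster equal weight in both libraries changed the all-cell log2 ratios to -0.47 for Retnla, -0.32 for Ear2, -2.82 for Ccl24, -1.61 for Fn1 and, reversed, 0.38 for Chil3. Clustering again without the members, added after seeing the data, gave -1.31 for Retnla in cluster 3 and no value for cluster 8. Behind the -1.31, 2 cells from cluster 8 held 92.4% of the ketogenic Retnla UMIs. Averaging over cells gave -3.19, -0.12, -3.30 and -1.60 for Retnla, Ear2, Ccl24 and Fn1 in cluster 3, 0.72 and 2.34 for Retnla and Ccl24 in cluster 8, and over all cells -2.82, -2.55, -4.75 and -4.13 for Retnla, Ear2, Ccl24 and Fn1. It was also applied to each gene's highest level, and gave 23294 (chow) and 38256 CPM for Retnla in cluster 8, 1067 for Ear2 and 1819 for Fn1 in cluster 8 on chow, and 1193 for Ccl24 in cluster 3 on chow and 514 in cluster 8 on the ketogenic diet. Leaving out the cell with most UMIs in each library gave -4.66 and -4.51 for Retnla and Ccl24 in cluster 3, 0.31 for Retnla in cluster 8 and -3.51 over all cells. Subtracting the cluster 1 level gave 0.46 and 2.05 for Retnla and Ccl24 in cluster 8, and -6.09 for Ccl24 over all cells. Subtracting 10% of UMIs as free RNA gave 2.26 for Ccl24 in cluster 8. Centring on the median gene (0.13 over all cells) gave 0.46 for Retnla in cluster 8 and, over all cells, -3.55, -2.36, -2.83 and -4.47 for Retnla, Chil3, Ear2 and Fn1. Keeping only cells at or above the lowest depth of the ketogenic library gave -3.47 for Retnla over all cells. The C1q cut at 0.5 per 1000 gave -0.48 and 0.56 for Chil3 in C1q-high and C1q-low cells; the first changed sign from 0.20, whose interval included 1. Thinning to 1500 UMIs gave shares of cells of 56.0% for Retnla and 30.6% for Chil3 on chow in cluster 3. Without thinning they were 91.0% and 29.7% for Retnla and 49.0% and 46.2% for Chil3 in cluster 3, and 99.2% for Retnla on chow in cluster 8. The count of 3 genes at least 2-fold lower in cluster 3 was 3 under all 7 alternatives run for it. The background rose from 2.75% to 5.40% with a minimum of 20 UMIs and to 6.12% with none. Depth limits cluster 8, with 47 ketogenic cells.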
